A study of Homo sapiens with 6 samples.

Results

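Histone genes were followed on 6 arrays of H1299 cells, a human lung cancer cell line, after lentiviral delivery of a control or a knockdown shRNA. They were chosen by symbol, as probe sets that the platform annotation gives a single histone symbol of the H1, H2A, H2B, H3, H4 or macroH2A families, with pseudogenes and antisense transcripts left out. This gave 54 genes of the 19775 genes with a single-symbol probe set: 43 clustered genes, 10 variant genes, and H2BC12L, an H2B gene outside the clusters, on chromosome 21. Each gene was read from its brightest probe set, and it was tested when the mean over the 6 arrays was at least 4 on the log2 scale. That filter kept 26 of the 54 genes: 17 clustered genes, 8 variants and H2BC12L.

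The control group carried a scramble shRNA, and the RBP2 KD1 and RBP2 KD2 groups, here shRNA 1 and shRNA 2, each carried a different shRNA to RBP2. RBP2 is an earlier name of KDM5A, an enzyme that removes methyl groups from lysine 4 of histone H3. Each group had 2 arrays, all from the same cell line in serum-containing medium, with RNA taken 72 hours after infection, and the labels do not say whether the 2 arrays of a group came from separate cultures. The p-values therefore measure the spread between these arrays, which may be technical. KDM5A itself measured 9.35 and 9.42 on the log2 scale with scramble, 7.42 and 7.27 with shRNA 1, and 6.66 and 6.72 with shRNA 2.

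Each nucleosome wraps DNA around a core of the histones H2A, H2B, H3 and H4, and the linker histone H1 sits where the DNA enters and leaves. Clustered histone genes lie in dense groups on chromosomes 6 and 1, are transcribed mainly in S phase, when new DNA must be packaged, and make mRNAs that end in a stem-loop in place of a poly(A) tail. Variant histone genes stand alone, are mostly expressed throughout the cell cycle, and make polyadenylated mRNAs, with H2AX known in both forms. Labelling that starts from a poly(A) tail reads chiefly polyadenylated RNA, so a clustered gene's signal may follow its polyadenylated transcripts more than its total RNA. The labels name a standard Affymetrix protocol without its primer.

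Most tested clustered H2A and H2B genes were higher with shRNA 2, while the 8 tested variants had no common direction. Of these variants, 4 had a difference above 0 with shRNA 2. With shRNA 2, 12 of the 17 tested clustered genes were higher than with scramble and 0 were lower, in limma's test at an adjusted p under 0.05, against 16.7% higher and 14.4% lower among all 10526 tested genes. At an unadjusted p under 0.05 the counts were 13 higher and 0 lower. The 12 called genes were 4 H2A, 6 H2B and 2 H4 genes, and the tested H1 and H3 genes were not called. A bright probe set shared by 14 H4 genes, read apart from these, was lower with shRNA 2 (limma adjusted p = 0.0058). The median log2 difference of the 17 genes was 1.24, beside 0.08 over all tested genes. Of the 8 tested variants, 0 were higher and 2, H1-10 and H2AZ1, were lower with shRNA 2 (2 and 2 at an unadjusted p under 0.05, and 2 and 3 in the fit that blocks on replicate number, the replicate block), and their median was -0.08. In all, 15 of the 26 histone genes were called with shRNA 2, where 31% of all tested genes were called. With the replicate block the count was 19, 16 higher and 3 lower, where 50.6% of all tested genes were called, 28.4% higher and 22.2% lower, and H1-2, H2AX, H3-3A and MACROH2A1 were the genes gained. Without the block, the count of 15 was 5 without shRNA 2 replicate 1, 5 without shRNA 2 replicate 2, 5 without scramble replicate 1 and 9 without scramble replicate 2. With any single array left out, the log2 difference with shRNA 2 ran from 2.37 to 2.87 for H2BC21 and from 1.30 to 1.35 for H2BC6. It ran from 1.17 to 1.30 for H4C11 and from 2.63 to 3.24 for H4C8. The calls of the other clustered genes did not hold in every such fit. For H2BC4 the difference ran from 2.16 to 3.31, and for H2BC5 from 2.24 to 3.08. For H2BC12 it ran from 0.56 to 0.73, and for H2BC9 from 0.63 to 0.84. H4C8 passed the filter through its shRNA 2 arrays, so a difference was built into its selection. Fits without an array have 2 residual degrees of freedom in place of 3, and no share of all tested genes was computed for them.

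Few histone genes passed with shRNA 1. One clustered gene, H2BC6, was higher and 1 variant, H2AZ2, was lower, which is 2 of 26 genes against 3.62% of all tested genes called higher and 7.9% called lower. The median was 0.41 for the clustered genes and -0.08 for the variants, beside 0.00 over all tested genes. The replicate block gave 9 calls, 7 higher and 2 lower, against 29.6% of all tested genes called, 12.8% higher and 16.8% lower: H1-2, H2BC4, H2BC5, H2BC6, H2BC12, H2BC12L and H4C8 were higher, and H4C11 and H2AZ2 were lower. Leaving out any 1 of the 6 arrays left 0 calls in limma's test with shRNA 1, with 3 to 9 genes at an unadjusted p under 0.05. No share of all tested genes was computed for the fits without an array, so the loss of calls cannot be set against it. The clustered median with shRNA 1 was 0.07 without shRNA 1 replicate 2, 0.14 without scramble replicate 1 and 0.41 in the fit to all arrays.

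In the mean of both shRNAs, 7 histone genes were higher and 1 was lower, where 12.5% of all tested genes were called, 5.61% higher and 6.92% lower. The 7 were H2AC8, H2AC17, H2BC5, H2BC6, H2BC12L, H2BC21 and H4C8, and H2AZ2 was the lower one. With the replicate block 13 were higher and 3 lower, where 34.9% of all tested genes were called, 17.4% higher and 17.5% lower. The genes gained were H1-2, H2AC6, H2AC25, H2BC4, H2BC12 and H4C11, all higher, and H1-10 and H2AZ1, both lower. The count of 8 became 4 without shRNA 1 replicate 1. Leaving out any other single array left 0 calls in limma's test, with 10 to 16 genes at an unadjusted p under 0.05. Here too, no share of all tested genes was computed for the fits without an array. The comparisons of each shRNA with scramble share the same 2 control arrays.

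The arrays can also be compared with no test. Both shRNA 2 arrays lay above both scramble arrays for 14 of the 17 tested clustered genes, and the groups overlapped for the other 3, where 40% of all tested genes lay above and 29.8% below. Both shRNA 1 arrays lay above scramble for 8 clustered genes and below for 1, with 8 overlapping, beside 26.4% and 27.4% of all tested genes. Both shRNA 1 arrays lay below both shRNA 2 arrays for 12 clustered genes and above for 0, beside 40.6% and 32.2%. Of the 8 variants, 3 lay above and 4 below scramble with shRNA 2.

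**Figure D1:**
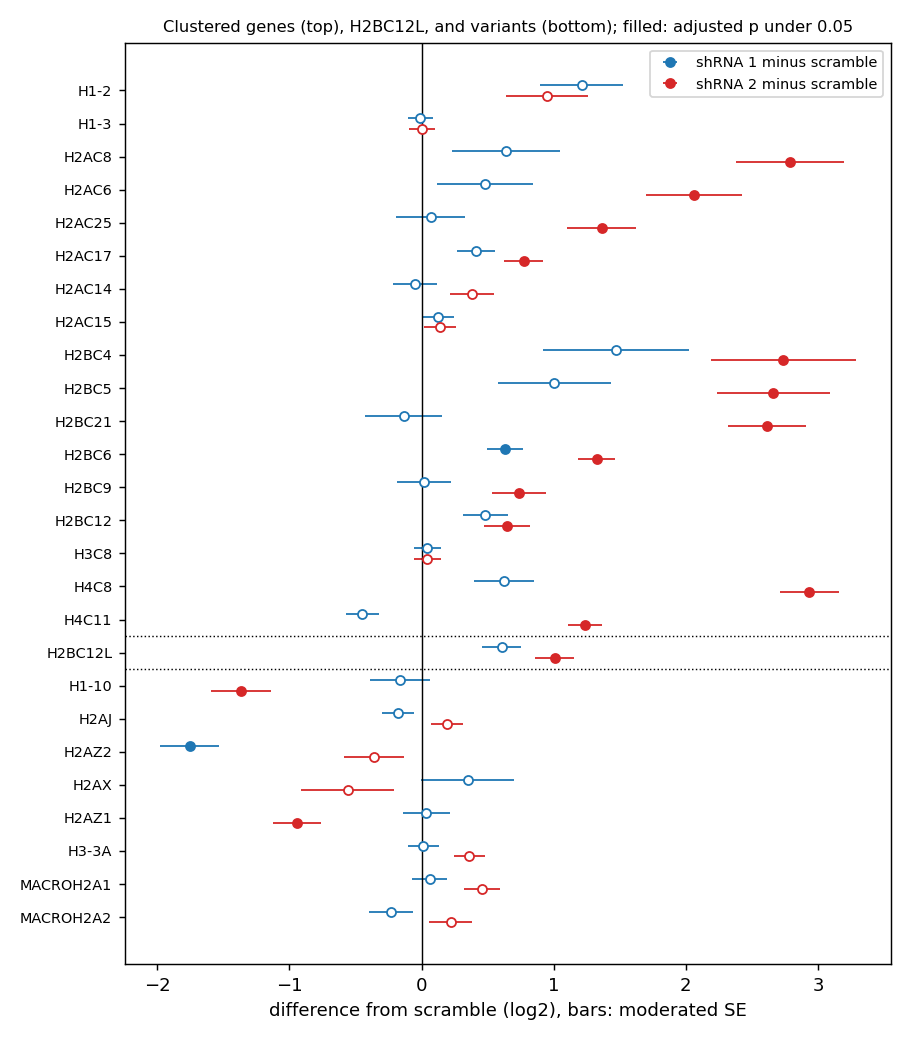
Difference from scramble on the log2 scale (horizontal axis) for the 26 tested histone genes, with shRNA 1 in blue and shRNA 2 in red; bars are the moderated SE of limma, and filled points have an adjusted p under 0.05. With shRNA 2, 12 clustered genes and H2BC12L are filled on the right and the variants H1-10 and H2AZ1 on the left; with shRNA 1 the filled points are H2BC6 and H2AZ2.

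The linker histone genes of the cluster opened the list. H1-2, a major somatic linker histone, measured 9.18 and 9.62 with scramble, 10.28 and 10.95 with shRNA 1, and 10.10 and 10.60 with shRNA 2. All 4 knockdown arrays lay above both scramble arrays. The differences, 1.21 ± 0.31 with shRNA 1 and 0.95 ± 0.31 with shRNA 2 (SE), missed the threshold (limma adjusted p = 0.073 and 0.075) and passed with the replicate block (adjusted p = 0.0049 and 0.0030). The difference between the shRNAs was 0.26 ± 0.31 (adjusted p = 0.54). H1-3 was read at the same value, 4.76, on 5 of the 6 arrays, so it gave no measured difference.

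Among the clustered H2A genes, 4 of 6 were higher with shRNA 2. H2AC8 measured 5.11 and 5.73 with scramble, 5.53 and 6.59 with shRNA 1, and 8.05 and 8.36 with shRNA 2. The shRNA 2 arrays stood apart from the other 4, whose groups overlapped, and the gene was 6.90-fold higher with shRNA 2 (log2 difference 2.79 ± 0.41 SE, limma adjusted p = 0.010). H2AC6 measured 9.27 and 9.96 with scramble, 9.65 and 10.53 with shRNA 1, and 11.62 and 11.73 with shRNA 2. It showed the same arrangement and was 4.18-fold higher with shRNA 2 (adjusted p = 0.015). H2AC25, which lies in a small cluster on chromosome 1, measured 6.12 and 6.59 with scramble, 6.23 and 6.61 with shRNA 1, and 7.48 and 7.96 with shRNA 2, a difference of 1.37 ± 0.26 (adjusted p = 0.018). H2AC17 measured 6.63 and 6.30, then 6.93 and 6.82, then 7.21 and 7.26, so that neither knockdown group overlapped with scramble. It passed with shRNA 2 (0.77 ± 0.15, adjusted p = 0.018) and not with shRNA 1 (0.41 ± 0.15, adjusted p = 0.14). H2AC14 and H2AC15 had log2 differences of 0.38 and 0.14 with shRNA 2 and did not pass, and H2AC14 was read at 7.42 on both scramble arrays.

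All 6 tested clustered H2B genes were higher with shRNA 2. H2BC4 measured 6.50 and 7.65 with scramble, 7.91 and 9.19 with shRNA 1, and 9.74 and 9.89 with shRNA 2. The 3 groups did not overlap, with shRNA 1 between the others. The difference was 2.74 ± 0.55 with shRNA 2 (limma adjusted p = 0.021) and 1.47 ± 0.55 with shRNA 1 (adjusted p = 0.15, and 0.028 with the replicate block). H2BC5 measured 9.13 and 9.97 with scramble, 10.05 and 11.05 with shRNA 1, and 12.09 and 12.33 with shRNA 2, and was 6.33-fold higher with shRNA 2 (adjusted p = 0.012). Its second probe set gave log2 differences of 0.63 with shRNA 1 and 1.89 with shRNA 2. H2BC21, in the larger cluster of chromosome 1, measured 6.17 and 6.65 with scramble, 6.0 and 6.55 with shRNA 1, and 8.77 and 9.27 with shRNA 2. Here shRNA 1 overlapped with scramble, and the gene was 6.13-fold higher with shRNA 2 (adjusted p = 0.0055).

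H2BC6 was the histone gene called higher with each shRNA. It measured 9.66 and 9.63 with scramble, 10.13 and 10.43 with shRNA 1, and 10.95 and 11.00 with shRNA 2. The groups did not overlap, and the log2 differences were 0.63 ± 0.14 with shRNA 1 (limma adjusted p = 0.049) and 1.32 ± 0.14 with shRNA 2 (adjusted p = 0.0050). The call with shRNA 1 rests on a p just under the threshold, and with quantile normalization it was lost (adjusted p = 0.055). H2BC12 and H2BC9 had smaller rises with shRNA 2, 0.65 ± 0.17 (adjusted p = 0.044) and 0.73 ± 0.20 (adjusted p = 0.049). H2BC12L, the H2B gene outside the clusters, measured 10.86 and 10.77 with scramble, 11.29 and 11.55 with shRNA 1, and 11.71 and 11.94 with shRNA 2. It was 2.01-fold higher with shRNA 2 (adjusted p = 0.010) and 1.52-fold higher with shRNA 1 (adjusted p = 0.067, and 0.028 with the replicate block).

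Of the clustered H3 and H4 genes, 2 of 8 H4 genes and 1 of 8 H3 genes were tested. H4C8 measured 3.61 and 3.46 with scramble, 4.24 and 4.07 with shRNA 1, and 6.77 and 6.16 with shRNA 2, a 7.65-fold difference with shRNA 2 (2.94 ± 0.23 SE, limma adjusted p = 0.0032). It passed the filter through the shRNA 2 arrays, since its scramble mean was below 4, so a difference was built into its selection. Without it, 11 of 16 clustered genes were higher with shRNA 2, with a median of 1.09, and 1 of 16 with shRNA 1, with a median of 0.27. The second H4C8 probe set read 3.33 and 2.72, then 3.96 and 2.73, then 6.59 and 5.54. H4C11 measured 7.28 and 7.14 with scramble, 6.87 and 6.66 with shRNA 1, and 8.49 and 8.40 with shRNA 2. Its shRNA 1 arrays lay below scramble (-0.45 ± 0.13, adjusted p = 0.090, and 0.025 with the replicate block) and its shRNA 2 arrays above (1.24 ± 0.13, adjusted p = 0.0050). H3C8 was read at 4.91 on 5 of the 6 arrays, so the clustered H3 genes gave no measured difference through a single-symbol probe set.

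**Figure D2:**
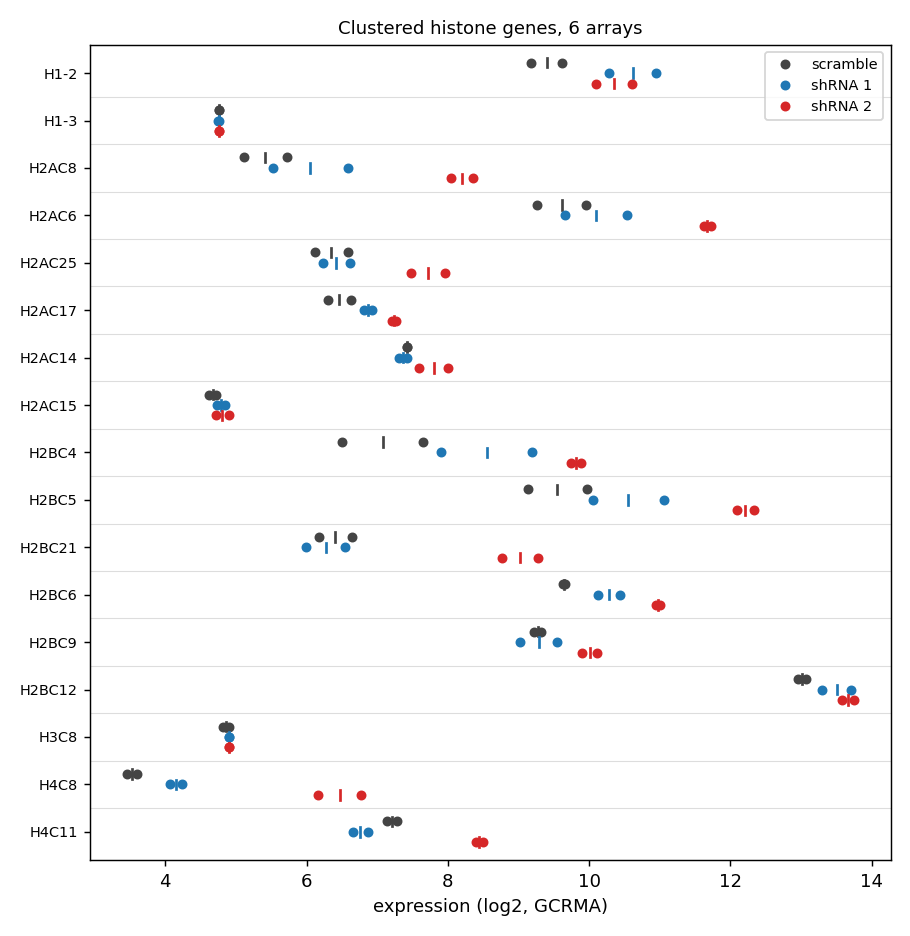
Expression (log2, GCRMA, horizontal axis) of the 17 tested clustered histone genes on each array, with scramble in grey, shRNA 1 in blue and shRNA 2 in red; points are arrays and short bars are group means of 2 arrays. The red points lie right of the grey ones for every H2B gene and both H4 genes, while the blue points overlap with the grey ones for H2AC8, H2AC6, H2AC25 and H2BC21; levels of different genes are not comparable.

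The remaining 26 clustered genes and 2 variants, H1-7 and H1-8, stayed below the filter and were not tested. Of these 28 genes, 16 were read at the same lowest value on all 6 arrays. The members nearest to the filter were H2BC11, with a mean of 3.97, and H2AC16, with 3.94. Among the tested clustered genes, 6 were read from probe sets marked _x_at, which can contain probes identical or near-identical to other genes, and 2 from probe sets marked _s_at, which match several transcripts. Clustered genes of a family are near-identical in their coding sequence, so the signal of a single-symbol probe set can still include RNA of its neighbours. With both kinds of probe set left out, 14 histone genes were tested, and 7 were called with shRNA 2, 6 higher and 1 lower. The share of all genes called in that setting was not computed.

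Probe sets annotated to several histone genes at once were read on their own. There were 28, and 22 had a mean of at least 4. For these, every probe set of the table with such a mean was tested alone, a comparison added after the data had been seen, in which limma called 12.9% of 22330 probe sets higher and 12.4% lower with shRNA 2, and 2.83% and 6.1% with shRNA 1. Either direction was called for 25.3% of probe sets with shRNA 2, 8.93% with shRNA 1, 8.72% for both and 36.5% between the shRNAs. Of the 11 shared probe sets of clustered H2A, H2B or mixed H2A and H3 genes, 10 were higher with shRNA 2, with log2 differences from 0.34 to 2.85. One of the 11 was higher with shRNA 1, and the range there was 0.07 to 1.09. The brightest probe set for 2 H2A genes measured 8.79 and 9.37 with scramble, 8.97 and 9.33 with shRNA 1, and 11.28 and 11.35 with shRNA 2. A probe set for 5 H2B genes measured 7.55 and 8.06 with scramble, 8.62 and 9.18 with shRNA 1, and 10.72 and 10.58 with shRNA 2. The former overlapped between scramble and shRNA 1, and the latter did not.

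The tested shared H3 and H4 probe sets were 3. One probe set for 10 clustered H3 genes measured 7.30 and 7.38 with scramble, 8.29 and 8.64 with shRNA 1, and 8.37 and 8.55 with shRNA 2. It was higher by 1.13 with each shRNA (limma adjusted p = 0.024 and 0.012), and the difference between the shRNAs was 0.00 (adjusted p = 1.0). The brighter of the 2 tested probe sets for 14 H4 genes measured 14.10 and 13.94 with scramble, 14.02 and 13.57 with shRNA 1, and 12.04 and 12.18 with shRNA 2. It fell by 1.91 with shRNA 2 (adjusted p = 0.0058), the single shared probe set called lower. The other H4 probe set measured 7.31 and 6.98 with scramble, 6.71 and 6.50 with shRNA 1, and 8.22 and 8.40 with shRNA 2, higher by 1.16 with shRNA 2 (adjusted p = 0.012). The 2 probe sets carry the same list of H4 genes and moved in opposite directions with shRNA 2, so a direction for the H4 family as a whole cannot be given.

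**Figure D3:**
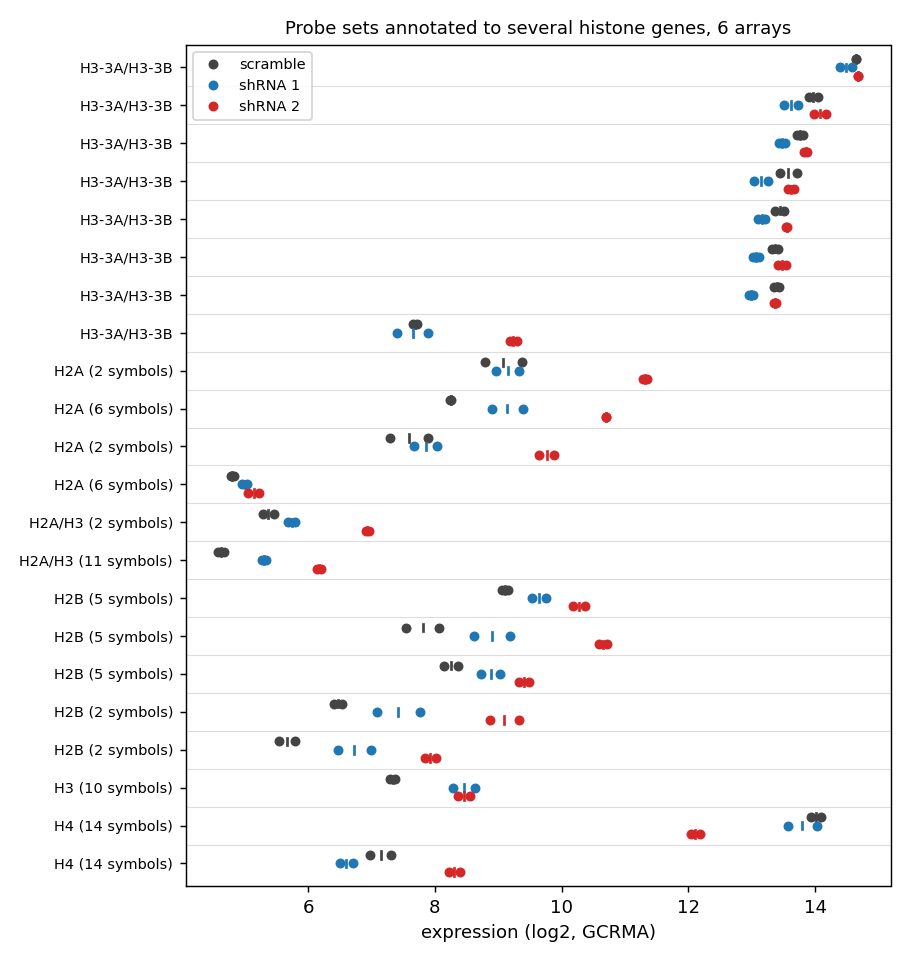
Expression (log2, GCRMA, horizontal axis) of the 22 tested probe sets annotated to several histone genes, with scramble in grey, shRNA 1 in blue and shRNA 2 in red; points are arrays, short bars are group means, and the number of histone symbols is given for each. Red points lie to the right for the H2A and H2B probe sets, and the brighter H4 probe set lies to the left at 12.04 and 12.18 against 14.10 and 13.94 with scramble.

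Among the variants, H2AZ2 fell with shRNA 1 and H2AZ1 with shRNA 2. Both encode H2A.Z, the H2A variant placed around transcription start sites. H2AZ2 measured 12.49 and 12.10 with scramble, 10.80 and 10.28 with shRNA 1, and 11.98 and 11.89 with shRNA 2. The shRNA 1 arrays lay below all others, 3.38-fold lower than scramble (-1.76 ± 0.23 SE, limma adjusted p = 0.017), and the difference with shRNA 2 was -0.36 ± 0.23 (adjusted p = 0.28). The 3 other H2AZ2 probe sets gave -0.68, -0.77 and -2.01 under shRNA 1, and -0.14, -0.23 and 0.02 under shRNA 2. They share the direction with shRNA 1, and its size spans 1.60-fold to 4.03-fold. The H2AZ2 call with shRNA 1 was lost without any 1 of the 6 arrays (adjusted p up to 0.10), while the difference stayed between -2.01 and -1.50.

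H2AZ1 measured 14.38 and 14.15 with scramble, 14.47 and 14.13 with shRNA 1, and 13.44 and 13.20 with shRNA 2. It was 1.92-fold lower with shRNA 2 (-0.94 ± 0.18 SE, limma adjusted p = 0.018), and shRNA 1 overlapped with scramble (0.04 ± 0.18, adjusted p = 0.93). Its other probe set gave -1.06 with shRNA 2 and -0.01 with shRNA 1. The H2A.Z genes thus differed between the shRNAs in opposite directions: shRNA 1 minus shRNA 2 was 0.98 ± 0.18 for H2AZ1 (adjusted p = 0.012) and -1.40 ± 0.23 for H2AZ2 (adjusted p = 0.0084). The H2AZ1 call with shRNA 2 was lost without either shRNA 2 array or either scramble array (adjusted p up to 0.10).

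H1-10, a linker histone variant, measured 9.33 and 9.27 with scramble, 9.17 and 9.10 with shRNA 1, and 7.61 and 8.25 with shRNA 2. It was 2.58-fold lower with shRNA 2 (-1.37 ± 0.23 SE, limma adjusted p = 0.013) and had a difference of -0.16 ± 0.23 with shRNA 1. H2AX, the variant phosphorylated at DNA breaks, measured 10.01 and 9.36 with scramble, 10.45 and 9.62 with shRNA 1, and 9.26 and 9.0 with shRNA 2. Its shRNA 2 arrays lay below scramble, at a difference of -0.56 ± 0.36 (adjusted p = 0.28, and 0.041 under the replicate block). A dimmer H2AX probe set gave -1.03 with shRNA 2.

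The other variants had smaller differences. MACROH2A1, which encodes a large H2A variant of repressed chromatin, measured 12.27 and 12.07 with scramble, 12.34 and 12.13 with shRNA 1, and 12.66 and 12.60 with shRNA 2. The difference with shRNA 2, 0.46 ± 0.13 (SE), missed the threshold in limma's test (adjusted p = 0.057, and 0.016 with the replicate block). Its probe sets disagree, since a dimmer one read 8.61 and 8.10, then 7.37 and 6.84, then 8.32 and 7.90, or -1.24 with shRNA 1. MACROH2A2 had differences of -0.23 and 0.22 with shRNA 1 and shRNA 2, and H2AJ of -0.18 and 0.19, all without a call. H2AJ was read from an _x_at probe set. Its other probe sets gave -0.21, -0.54 and -0.67 with shRNA 1 and 0.25, 0.04 and 0.17 with shRNA 2, with no call against scramble. Between the shRNAs each of these others passed when tested alone (limma adjusted p = 0.034, 0.039 and 0.011), as did 36.5% of all probe sets. H3-3A, which encodes the replacement histone H3.3, was read from a dim single-symbol probe set at 5.07 and 5.09, then 5.09 and 5.10, then 5.55 and 5.34, and its difference of 0.36 with shRNA 2 passed with the replicate block (adjusted p = 0.040). Of the 8 shared probe sets for H3-3A and H3-3B, the 7 brighter ones differed from scramble by -0.43 to -0.15 under shRNA 1 and by -0.03 to 0.11 under shRNA 2, and 0 passed against scramble. The dimmest of the 8 was higher by 1.55 with shRNA 2 (adjusted p = 0.0086).

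**Figure D4:**
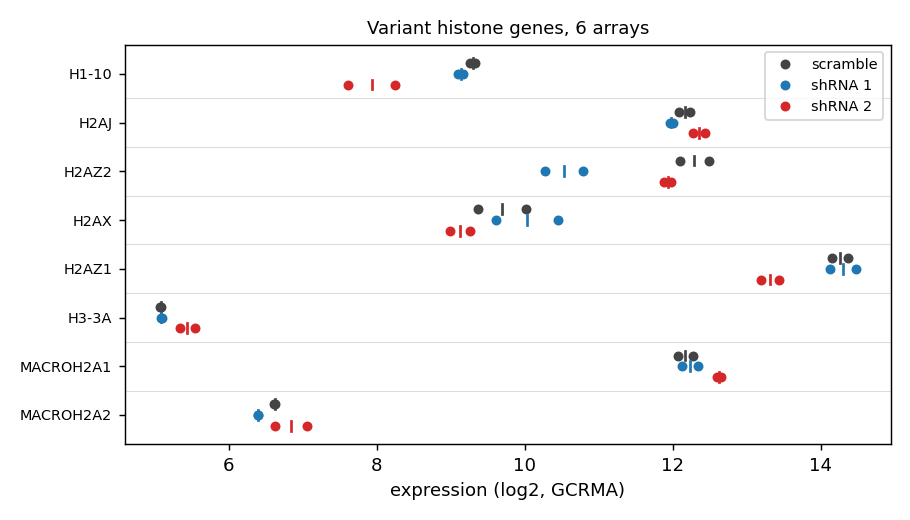
Expression (log2, GCRMA, horizontal axis) of the 8 tested variant histone genes on each array, with scramble in grey, shRNA 1 in blue and shRNA 2 in red; points are arrays and short bars are group means of 2 arrays. H2AZ2 is lowest in the blue arrays (10.80 and 10.28), H1-10 and H2AZ1 are lowest in the red arrays.

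The shRNAs were compared directly as well. Of the 26 histone genes, 10 were lower with shRNA 1 than with shRNA 2 and 2 were higher, against 41.1% of all tested genes called, 23.3% lower and 17.8% higher. The 10 were H2AC6, H2AC8, H2AC25, H2BC5, H2BC6, H2BC9, H2BC21, H4C8, H4C11 and the variant H2AZ2, and the 2 were H1-10 and H2AZ1. The largest of these differences was that of H2BC21, -2.75 ± 0.29 (SE, limma adjusted p = 0.0029). For H2BC4, H2BC12 and H1-2 the differences were -1.27 ± 0.55, -0.16 ± 0.17 and 0.26 ± 0.31, and none passed. With the replicate block 17 were lower and 3 higher, where 57.7% of all tested genes were called, 32.6% lower and 25.1% higher. The genes gained were H2AC14, H2AJ, H2BC4, H2BC12L, H3-3A, MACROH2A1 and MACROH2A2, all lower with shRNA 1, and H2AX, which was higher. The clustered median of shRNA 1 minus shRNA 2 was -0.72 in the fit to all arrays. With any single array left out it ran from -0.98 to -0.54. No share of all tested genes was computed for the fits without an array.

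Several of the H2A and H2B genes that rose with shRNA 2 stand head to head with a partner, so that an H2A and an H2B gene are transcribed away from each other out of one short stretch of DNA. The stretches of 3 such pairs are printed between the 2 start sites, because each drives an H2A or H2B gene described above, from RefSeq on GRCh38.p14, plus strand. The stretch between H2BC4 and H2AC6 is chr6:26123927-26124171, that between H2BC21 and H2AC20 is chr1:149886683-149886917, and that between H2BC8 and H2AC8 is chr6:26216689-26216920. Both genes were called in the pair of H2BC4 and H2AC6; H2BC8 was read from shared probe sets alone, and H2AC20 was not analysed here. Capitals mark, on either strand, the octamer ATTTGCAT, known from H2B promoters as the site of OCT1, the CCAAT box (CCAAT) and the TATA box (TATAAA).
H2BC4-H2AC6: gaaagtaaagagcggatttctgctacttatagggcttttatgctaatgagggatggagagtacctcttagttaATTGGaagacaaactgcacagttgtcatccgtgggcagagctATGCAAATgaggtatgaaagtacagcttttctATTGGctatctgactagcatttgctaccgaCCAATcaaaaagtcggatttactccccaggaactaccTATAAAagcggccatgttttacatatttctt
H2BC21-H2AC20: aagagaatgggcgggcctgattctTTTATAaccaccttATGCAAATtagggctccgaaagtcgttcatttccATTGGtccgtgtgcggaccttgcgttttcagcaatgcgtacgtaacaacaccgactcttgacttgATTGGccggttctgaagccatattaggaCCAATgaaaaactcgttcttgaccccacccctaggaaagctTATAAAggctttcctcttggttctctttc
H2BC8-H2AC8: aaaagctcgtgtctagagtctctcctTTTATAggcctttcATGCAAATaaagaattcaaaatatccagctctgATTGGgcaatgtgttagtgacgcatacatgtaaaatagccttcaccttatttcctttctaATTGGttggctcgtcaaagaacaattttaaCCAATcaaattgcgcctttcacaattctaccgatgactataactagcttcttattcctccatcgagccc

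Each of the 3 stretches holds 1 octamer and 3 CCAAT boxes. For comparison the 250 bases upstream of the start are shown for H4C8, the gene with the largest fold with shRNA 2, and for the variants H2AZ1 and H2AZ2, which fell with different shRNAs. They lie at chr6:26285535-26285784, chr4:99950276-99950525 and chr7:44848088-44848337, all on the minus strand of GRCh38.p14, and each is written in the direction of the gene.
H4C8: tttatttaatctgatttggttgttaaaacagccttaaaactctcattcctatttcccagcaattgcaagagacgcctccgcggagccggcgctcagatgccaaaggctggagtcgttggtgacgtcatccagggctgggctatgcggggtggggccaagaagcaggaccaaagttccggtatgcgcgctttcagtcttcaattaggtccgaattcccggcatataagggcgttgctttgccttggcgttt
H2AZ1: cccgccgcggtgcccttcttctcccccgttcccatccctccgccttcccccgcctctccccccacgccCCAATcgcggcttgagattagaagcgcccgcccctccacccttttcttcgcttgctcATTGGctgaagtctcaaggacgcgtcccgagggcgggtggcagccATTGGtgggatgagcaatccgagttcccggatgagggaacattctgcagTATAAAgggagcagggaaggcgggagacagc
H2AZ2: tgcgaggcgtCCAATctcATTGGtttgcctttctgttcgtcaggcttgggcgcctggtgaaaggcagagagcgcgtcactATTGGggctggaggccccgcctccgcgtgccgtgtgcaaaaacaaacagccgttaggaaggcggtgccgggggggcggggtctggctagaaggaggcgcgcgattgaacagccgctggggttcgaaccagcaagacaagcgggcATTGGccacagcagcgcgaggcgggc

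RefSeq upstream windows were found for 51 of the 54 histone genes and 25 of the 26 tested ones. The octamer ATTTGCAT occurred, on either strand, in the 250 bases upstream of 5 of 6 tested clustered H2B genes and 4 of 6 tested clustered H2A genes. It occurred in 0 of 5 tested clustered H1, H3 and H4 genes, in 0 of 8 tested variants, and in 1.63% of all 35116 windows. For each motif, a gene counted when any of its windows held the letters, while the shares of all windows count every window alone. Of the 24 clustered genes below the filter with a window, 7 held the octamer, 21 the CCAAT box and 17 the TATA box. All 7 with the octamer were H2A or H2B genes, and of these families below the filter only H2BC13 and H2BC15 lacked it. These motifs were thus not limited to the genes that were tested. The octamer was absent from the windows of H2BC5 and H2AC25, which were higher with shRNA 2, and present in that of H2AC14, which had no call. The CCAAT box stood in the windows of all 12 tested clustered H2A and H2B genes, of 6 of 8 variants, and in 32% of all windows. The TATA box stood in 5 of the 6 H2B and 4 of the 6 H2A windows, in 3 of 8 variant windows, and in 10.7% of all windows. Head-to-head genes share most of their windows, so these genes are not independent, and a match of letters is a description of the sequence.

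Genes that make and handle histone mRNA were followed as a list of 19, of which 17 were tested. With shRNA 2, 4 were lower and 0 higher in limma's test (4 and 0 with the replicate block), beside 14.4% of all tested genes lower, and 22.2% with the block. SLBP, the stem-loop binding protein of clustered histone mRNAs, measured 12.19 and 11.95 with scramble, 12.44 and 11.98 with shRNA 1, and 10.31 and 10.19 with shRNA 2. It was 3.53-fold lower with shRNA 2 (-1.82, adjusted p = 0.0050), with a difference of 0.14 with shRNA 1. ZNF473, which takes part in cutting the 3′ end of histone mRNA, had a mean of 5.26 with scramble, 5.22 with shRNA 1 and 2.88 with shRNA 2, a fall of 2.38 with shRNA 2 (adjusted p = 0.015). Its shRNA 2 mean was below the filter of 4, so it was tested through the scramble and shRNA 1 arrays, and a difference was built into its selection. The other 2 were CASP8AP2, a component of the histone locus body, at -0.54, and SRRT at -0.81. HINFP, a factor of H4 gene promoters, was the 1 gene lower with shRNA 1 (-0.58, adjusted p = 0.047). NPAT, the coactivator of clustered histone genes, had differences of 0.10 with shRNA 1 and -0.31 with shRNA 2 and did not pass (adjusted p = 0.62 and 0.094).

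Chaperones and exchange factors gave 3 higher and 6 lower of 28 tested genes with shRNA 2, and 2 higher and 0 lower with shRNA 1 (4 and 14, and 6 and 3, with the replicate block). Over all tested genes 16.7% were higher and 14.4% lower with shRNA 2, and 3.62% and 7.9% with shRNA 1; with the block the shares were 28.4% and 22.2%, and 12.8% and 16.8%. SUPT6H, a histone chaperone of transcription, rose by 0.68 with shRNA 1 and 0.63 with shRNA 2 (limma adjusted p = 0.035 and 0.020). HIRA, which deposits H3.3 outside S phase, was higher by 1.12 with shRNA 2 (adjusted p = 0.012). ASF1B, a chaperone of new H3 and H4, had a difference of -3.07 with shRNA 2 (adjusted p = 0.016) while its relative ASF1A was higher by 0.53 (adjusted p = 0.023). ANP32E, which removes H2A.Z from nucleosomes, fell by 1.11 with shRNA 2 (adjusted p = 0.0088). SSRP1 was lower in the mean of both shRNAs (-0.49, adjusted p = 0.048), and CHAF1B, a subunit of the chaperone of replicating DNA, had -1.36 there and did not pass (adjusted p = 0.056).

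The centromeric variant CENPA, which the symbol rule does not cover, and its deposition factors were all 4 lower with shRNA 2. CENPA measured 8.89 and 8.03 with scramble, 8.61 and 7.23 with shRNA 1, and 5.93 and 4.75 with shRNA 2 (-3.12, limma adjusted p = 0.022). Its chaperone HJURP had -3.61 (adjusted p = 0.0092), OIP5 -2.72 and MIS18A -1.23 with shRNA 2. None of the 4 passed with shRNA 1 in limma's test (MIS18A at -0.85, adjusted p = 0.10), and 1 was lower there with the replicate block. Over all tested genes 14.4% were lower with shRNA 2 and 7.9% with shRNA 1, and 16.8% with shRNA 1 under the block.

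S phase genes were lower with shRNA 2, where 12 of the 17 tested clustered histone genes were higher. Of 18 tested S phase genes, 12 were lower and 0 higher with shRNA 2, with a median of -2.40, and 2 were lower and 0 higher with shRNA 1, with a median of -0.14 (limma; 17 and 2 lower with the replicate block). Of all tested genes 14.4% were lower with shRNA 2 and 7.9% with shRNA 1, and 22.2% and 16.8% with the block. CDK2 measured 10.37 and 9.70 with scramble, 10.56 and 9.77 with shRNA 1, and 5.14 and 5.81 with shRNA 2. CDC45, a helicase component of the replication fork, had a difference of -4.51 with shRNA 2, and GINS2 had -4.21. CDC45 stood at 3.05 on both shRNA 2 arrays, below the filter of 4, so it was tested through the other arrays. CCNE1, which drives entry into S phase, was lower with shRNA 1 (-2.58, adjusted p = 0.018) and had -0.01 with shRNA 2. The summed log2 level of all 19 listed genes was 193.2 and 175.5 with scramble, 190.4 and 168.0 with shRNA 1, and 142.1 and 136.0 with shRNA 2. In these bulk samples fewer cells in S phase and less RNA per cell cannot be told apart, and the part of the S phase genes in the histone differences was not tested.

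**Figure D5:**
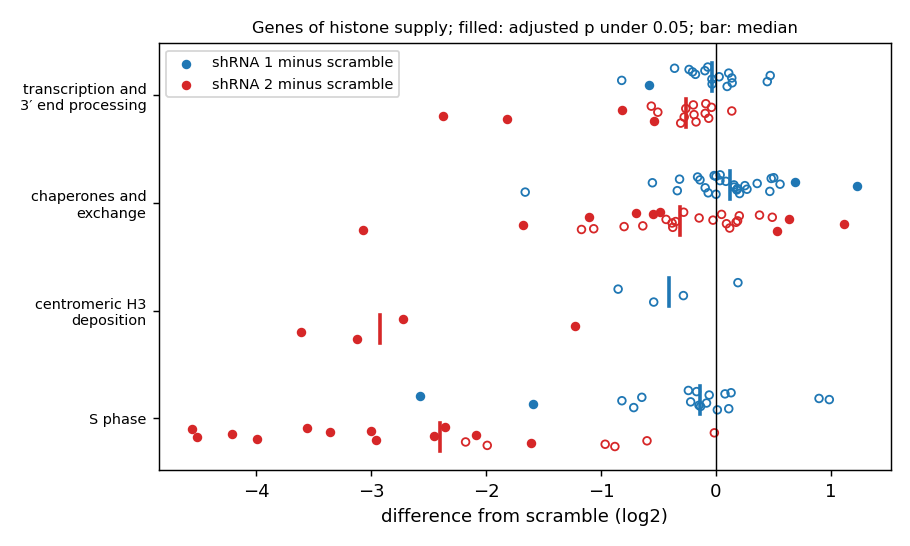
Difference from scramble on the log2 scale (horizontal axis) for 4 lists of genes of histone supply, with shRNA 1 in blue and shRNA 2 in red; each point is a gene, filled at an adjusted p under 0.05, and bars are list medians. The S phase list has its median at -2.40 with shRNA 2 and at -0.14 with shRNA 1, and all 4 genes of centromeric H3 deposition are filled on the left with shRNA 2.

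The arrays of one group differed as well. Replicate 2 was higher than replicate 1 for 11 of 17 clustered genes with scramble, 13 with shRNA 1 and 12 with shRNA 2, beside 49.2%, 48.2% and 52.9% of all tested genes. Of the 18 S phase genes, 18 were lower in replicate 2 with scramble, 18 with shRNA 1 and 14 with shRNA 2. The same held for 5007, 5211 and 4687 of all 10526 tested genes. The median of replicate 2 minus replicate 1 was -0.98, -1.20 and -0.41 for the S phase genes. For the clustered genes it was 0.10, 0.39 and 0.15, and over all tested genes 0.00, 0.00 and 0.02.

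The arrays differed little in overall level, with medians over tested genes of 8.49 to 8.56. The epithelial keratin KRT18 and the intermediate filament VIM, both found in this line, had group means of 12.9 to 13.1 and 14.93 to 15.01, with no call. KRT8, the third tested marker of the line, measured 9.87 and 9.80 with scramble, 10.69 and 10.44 with shRNA 1, and 10.29 and 10.15 with shRNA 2, and was higher by 0.74 with shRNA 1 (limma adjusted p = 0.035) and by 0.56 for both shRNAs (adjusted p = 0.044). The summed log2 level of the 3 markers was 37.7 and 37.5 with scramble, 38.9 and 38.4 with shRNA 1, and 38.3 and 38.0 with shRNA 2, and their part in the histone differences was not tested. Of 7 markers of other cells, PTPRC, CD3E, CDH5 and LUM stood at the lowest value, 2.24, in the mean of each group. COL1A1 was the 1 tested marker, at 6.30 with scramble, 6.50 with shRNA 1 and 6.91 with shRNA 2 (not called, limma adjusted p = 0.17 in the mean of both shRNAs). The summed log2 level of the 7 markers ran from 19.8 to 20.6 over the arrays.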

How the data were processed

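Expression values of 6 arrays were used as deposited, 1 column for each sample. The authors made them with GCRMA, per the submitters' processing notes, which corrects background by probe sequence, normalizes between arrays and summarises probes into probe sets. The log2 scale of the deposited values was read from their range. The lowest value, 2.24, held 37.7% to 38.7% of each array, so dim genes are compressed and their differences understated.

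Of 54675 probe sets, 62 were controls and 41091 carried 1 gene symbol in the platform annotation, checked against RefSeq (0 symbols changed). The brightest probe set represented each of 19775 genes, and 10526 with a mean of at least 4 were tested. Limma version 3.58.1 in R version 4.3.3 fitted 1 mean per group over all 6 arrays (3 residual and 2.09 prior degrees of freedom), two-sided, with Benjamini-Hochberg adjustment over all tested genes. Precision is limited by the number of arrays, with a median SE over genes of 0.14 when both shRNAs are pooled and 0.17 for each other comparison (log2). The procedure was tested on simulated data.

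Same-numbered arrays deviated together from their group means (correlations over genes of 0.75, 0.51 and 0.53), so the replicate numbers of the titles were taken to pair samples. All tested variants, clustered genes called in any comparison, and up to 4 members of each companion list with the smallest adjusted p for both shRNAs were named. Others (H1-2, H1-3, H2AC14, H2AC15, H3C8, SRRT, NPAT, HIRA, ASF1A, ASF1B) were added after their values were seen. The histone genes and lists were chosen with earlier results of these data known. Alternatives changed the filter, the probe sets, the normalization, the variance model, the replicate block and the arrays included. Among these alternatives, the share of all tested genes called was computed for the replicate block alone.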

Additional observations from a re-analysis of the deposited data

Results flagged for a closer look

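For 12 of the 26 tested histone genes (46.2%) the difference from scramble was not the same with the 2 shRNAs. The test was limma's, of shRNA 1 minus shRNA 2 at an adjusted p under 0.05. Of all tested genes 41.1% passed, a share near that of the histone genes, so the count does not set them apart. Among clustered H2A genes the log2 differences of shRNA 1 minus shRNA 2 were -1.29 for H2AC25, -1.58 for H2AC6 and -2.15 for H2AC8. Among clustered H2B genes they were -2.75 for H2BC21, -1.66 for H2BC5, -0.69 for H2BC6 and -0.72 for H2BC9. The H4 genes had -1.68 for H4C11 and -2.31 for H4C8. The variants had 1.20 for H1-10, 0.98 for H2AZ1 and -1.40 for H2AZ2. H4C11, H2BC21 and H2AZ1 also had opposite signs against scramble with the 2 shRNAs, with differences of -0.45, -0.14 and 0.04 with shRNA 1. With shRNA 1 none of the 3 passed against scramble without the replicate block, and with it H4C11 was lower (limma adjusted p = 0.025). With shRNA 2 each of the 3 was called against scramble.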

How the results depend on the processing

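The replicate block changed the counts of called histone genes from 8 to 16 for both shRNAs, from 2 to 9 for shRNA 1, from 15 to 19 for shRNA 2 and from 12 to 20 for shRNA 1 against shRNA 2. It ended no call of a histone gene, and beyond the genes named as gained it changed no other call. Testing dim probe sets too, the counts were 0 (16 at an unadjusted p under 0.05), 0 (6), 4 with shRNA 2 and 3 between the shRNAs in limma's test, and the clustered medians were 0.014, 0.00, 0.028 and -0.0030, where 54 genes were tested in place of 26. Without _x_at and _s_at probe sets, which left 14 genes, the counts were 4 for both, 7 with shRNA 2 and 7 between the shRNAs. The variant median with shRNA 1 was then -0.67. The clustered median between the shRNAs was -0.36 there and -1.27 at a mean of at least 6. It was -0.72 with the filter and probe sets used throughout, and these settings keep different genes. Quantile normalization left 1 call with shRNA 1; the cause was not tested. Among single genes, the intensity trend with a robust prior ended the call of H2AC17 for both shRNAs (adjusted p = 0.056) and made 5: H2BC4 and H2BC12 for both, MACROH2A1 with shRNA 2, and H2AJ and MACROH2A1 between the shRNAs. Centring made 3: H2AC6 and H2BC4 for both and MACROH2A1 with shRNA 2. Leaving out tied lowest values, an alternative chosen after seeing the data, left 83 differences of single genes with their direction and call, and 1 newly passed.

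Leaving out each array gave 0 to 4 calls for both shRNAs, 0 to 0 with shRNA 1, 5 to 15 with shRNA 2 and 4 to 11 between the shRNAs. The clustered medians ran from 0.60 to 0.95, from 0.070 to 0.41, from 1.12 to 1.24 and from -0.98 to -0.54, and the variant medians from -0.21 to -0.01, from -0.15 to -0.06, from -0.16 to -0.02 and from -0.36 to -0.26.

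Signs turned for differences that were not called. Without _x_at and _s_at probe sets these were H2AJ (-0.25) and MACROH2A1 (-0.75) for both shRNAs, H2AZ1 (-0.0097) and MACROH2A1 (-1.24) with shRNA 1 and MACROH2A1 (-0.25) with shRNA 2. With the mean of all probe sets they were H2AJ for both (-0.12) and MACROH2A1 with shRNA 1 (-0.10). MACROH2A2 for both was 0.041 after quantile normalization and 0.036 after centring. With 1 array left out, the values for both shRNAs ran from -0.063 to 0.077 for H2AJ, from -0.43 to 0.22 for H2AX and from -0.11 to 0.10 for MACROH2A2. With shRNA 1 they ran from -0.16 to 0.30 for H2AC25, from -0.069 to 0.77 for H2AX, from -0.14 to 0.21 for H2AZ1, from -0.41 to 0.14 for H2BC21, from -0.24 to 0.27 for H2BC9 and from -0.045 to 0.17 for MACROH2A1. Between the shRNAs H2BC12 ran from -0.36 to 0.040.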
